A study of Mus musculus with 15 samples.

Results

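The genes described here are genes of the primary cilium and of cystic kidney disease, followed in mouse kidneys that carried or lacked a deletion of the nuclear receptor ERRγ. The rule that takes the members reads their symbols and no measured value: symbols that start with Ift, Bbs or Nphp and a digit, the polycystic genes Pkd1, Pkd2 and Pkhd1, and 18 further named genes. The rule found 45 genes of the 23393 in each table, among them 13 Ift, 8 Bbs and 3 Nphp genes. By role they comprised 10 subunits of the intraflagellar transport complex IFT-B, 6 of IFT-A, 5 motors, 8 BBS genes, 3 polycystic genes, 5 genes of nephronophthisis and the inversin compartment, and 8 genes of the transition zone or of Joubert and Meckel syndromes.

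As background, most tubule cells of the kidney carry a single primary cilium on their apical face. Its axoneme is built by trains of IFT proteins, which kinesin-2 motors carry outward and the dynein-2 motor carries back, while the BBSome moves membrane proteins along it and the transition zone gates what enters at its base. Mutations in genes of the cilium and its base cause polycystic kidney disease, nephronophthisis, Bardet-Biedl and Joubert syndromes.

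All mice were C57BL/6 and homozygous for a floxed Esrrg allele (ERRg fl/fl), the gene of ERRγ; knockouts also carried Sim1-Cre, and controls were littermates without Cre. The deletion is thus limited to cells in which Sim1-Cre was active, which are only part of the whole kidney whose polyadenylated RNA was sequenced. The labels give 15 libraries in 6 groups: at 3 weeks of age, 2 controls and 3 knockouts among males and 2 of each among females, and at 3 months 3 of each among males. The source names of the 3-month knockouts say female where title and sex tag say male. In the authors' deposited table of those mice the mean normalized count was 11.9 for Xist and 1477 for Ddx3y, against 23848 and 0.831 in the table of females, so the group is called male here.

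The values are 3 deposited comparisons of knockout with control, made with DESeq2, and none is per library. Unless named otherwise, every mean count, log2 fold change, standard error (±) and adjusted p in what follows is that of the authors' deposited table for the age and sex named, and a gene is called where that adjusted p is under 0.05. These p-values rest on the variation among the libraries used for a table, which may be technical in part. Steps in the lowest means gave 4, 4 and 5 libraries for 3-week males, 3-week females and 3-month males, where the labels give 5, 4 and 6, and which ones entered is not known. Summed over genes, the mean normalized counts were 47568700, 33925341 and 18839759. The tables do not name the direction of the ratio. It was read as knockout over control because the mitochondrial and reabsorptive genes that the series title ties to ERRγ had negative values, such as Sdha (−0.69, −0.54 and −1.55 in the same order) and Slc5a2 (−3.15, −2.72 and −3.54). Esrrg itself goes against this reading at 3 weeks, with 0.82 ± 0.20 in males and 1.04 ± 0.17 in females, and stood at −0.87 ± 0.57 with no p-value at 3 months. A count over the whole gene does not show which exons were read. Knockout here means the libraries labelled so, and with the ratio turned around every higher and lower in what follows would swap. Fold changes also depend on scaling: with summed counts made equal between genotypes, every log2 fold change moves up by 0.18 in 3-week males, 0.15 in 3-week females and 0.49 in 3-month males.

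The promoters of the genes on which the results turn are shown first, because ERRγ binds DNA directly and because ciliary genes are known targets of RFX factors. RefSeq (GRCm38.p6) gave an entry for 38 of the 45 genes. Each line gives the 250 bases before the start of the gene, 5′ to 3′ on the strand of the gene, with capitals marking AAGGTCA, the core of the ERR response element (or its reverse complement TGACCTT), or GTTGCC, one arm of the X-box bound by RFX factors. Dcdc2a is shown as the member with the largest fold change and no match, Pkd2, Ift172 and Bbs4 as the members with the ERR core, and Arl13b as the member called higher at 3 months.
Dcdc2a, chr13:25055754-25056003, plus strand: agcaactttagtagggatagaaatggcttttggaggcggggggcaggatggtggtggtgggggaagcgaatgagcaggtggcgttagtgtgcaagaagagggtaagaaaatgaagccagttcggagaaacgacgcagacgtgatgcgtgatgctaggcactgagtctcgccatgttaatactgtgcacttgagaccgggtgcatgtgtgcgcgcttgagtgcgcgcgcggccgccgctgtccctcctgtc
Pkd2, chr5:104459207-104459456, plus strand: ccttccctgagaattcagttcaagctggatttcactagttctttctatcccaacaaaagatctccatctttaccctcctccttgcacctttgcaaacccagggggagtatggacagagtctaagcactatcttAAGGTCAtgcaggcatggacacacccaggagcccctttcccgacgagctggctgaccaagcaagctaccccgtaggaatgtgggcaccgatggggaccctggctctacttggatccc
Ift172, chr5:31291115-31291364, minus strand: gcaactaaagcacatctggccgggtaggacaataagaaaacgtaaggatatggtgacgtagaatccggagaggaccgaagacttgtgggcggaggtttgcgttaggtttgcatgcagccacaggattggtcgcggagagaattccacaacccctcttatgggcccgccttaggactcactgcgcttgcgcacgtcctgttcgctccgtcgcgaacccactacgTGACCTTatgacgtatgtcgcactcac
Bbs4, chr9:59353509-59353758, minus strand: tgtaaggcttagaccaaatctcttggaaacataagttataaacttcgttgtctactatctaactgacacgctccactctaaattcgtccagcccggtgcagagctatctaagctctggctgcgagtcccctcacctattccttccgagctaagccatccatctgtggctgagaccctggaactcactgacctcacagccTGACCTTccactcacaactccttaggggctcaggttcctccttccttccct
Arl13b, chr16:62847041-62847290, minus strand: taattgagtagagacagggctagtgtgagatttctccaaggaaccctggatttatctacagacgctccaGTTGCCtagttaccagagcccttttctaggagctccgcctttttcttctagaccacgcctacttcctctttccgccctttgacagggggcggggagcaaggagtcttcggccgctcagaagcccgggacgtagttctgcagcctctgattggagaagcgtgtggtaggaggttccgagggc

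In Pkd2 the ERR core begins 117 bases before the start, on the strand of the gene. In Bbs4 and Ift172 it lies on the opposite strand, its far end 51 and 27 bases before the start. Searched on both strands, AAGGTCA was in 3 of the 38 member promoters (7.90%) and in 4.20% of 16375 promoters of genes in the tables. The longer element TCAAGGTCA, which contains that core, was in none of the 38 and in 0.360% of all. GTTGCC was in 8 of 38 (21.1%), namely Arl13b, Bbs7, Ift140, Ift27, Ift57, Kif17, Kif3a and Tctn3, against 11.6% of all, and the longer GTTGCCATG in none, against 0.647%. At 3 months, where 57.5% of all tested genes were called, Pkd2 and Ift172 of the 3 genes with the ERR core were called lower and Bbs4 was not called. Of the 8 genes with GTTGCC, Bbs7 and Ift57 were called lower and Arl13b higher. With summed counts made equal, Pkd2 and Arl13b kept their calls, while Ift172 (adjusted p = 0.773), Bbs7 (0.201) and Ift57 (0.599) were not called. That scaling also gave new calls, all higher: Bbs4 (0.66) with the ERR core, and Ift27 (0.82), Ift140 (0.58) and Kif3a (0.79) with GTTGCC. Of the calls over all genes 84.0% were then higher. The 38 genes have 41 windows, and these are matches of letters, not binding sites.

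The 45 genes lie on 17 chromosomes and have a median exon length of 6243 bases (range 1525 to 17415; GENCODE M21). All were expressed. Per kb of exon, which allows levels of genes to be compared, the highest mean counts in 3-week males were those of Dync2li1, a light intermediate chain of dynein-2 (1242 normalized counts per kb), Ift20, an IFT-B subunit also found at the Golgi (1205), and Pkd2, which encodes the channel polycystin-2 (852). Ift52 reached 790 and Pkhd1, the fibrocystin gene, 625. Pkd1, which encodes polycystin-1, reached 250, below its partner Pkd2. The lowest levels were those of Nphp4 (28.3) and Kif17 (6.30), a kinesin best known from neurons and photoreceptors. The order was much the same in 3-week females, where Dync2li1 (949), Ift20 (828) and Pkd2 (590) again led. In 3-month males Pkd2 was first (422) and Dync2li1 second (419). The tables were normalized separately, so levels are set side by side across them for their order only.

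**Figure D1:**
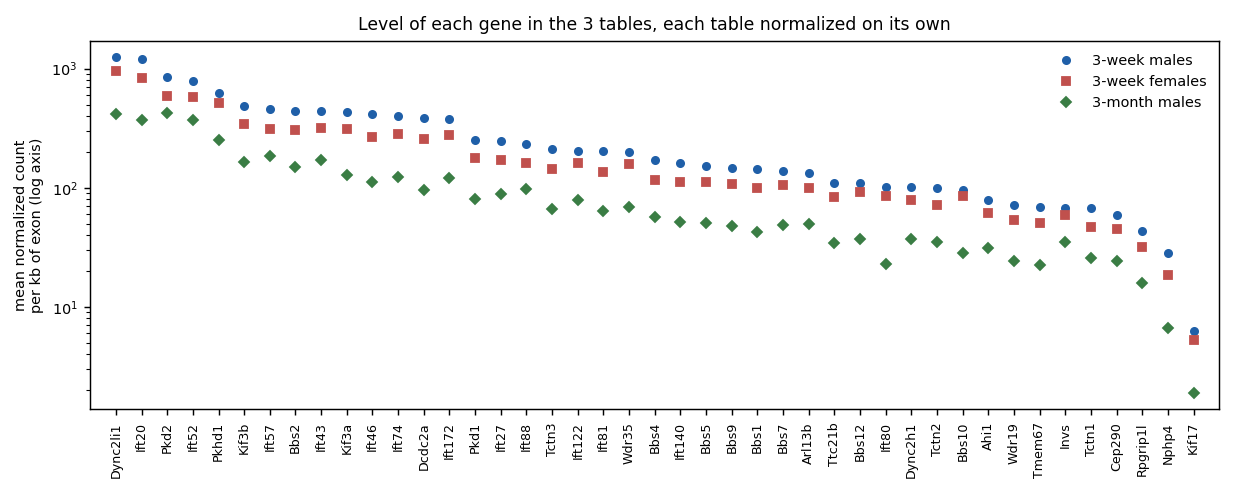
Mean normalized count per kb of exon (y axis, log scale) of 43 of the 45 genes (x axis, ordered by 3-week males) in the authors' deposited tables of 3-week males (circles), 3-week females (squares) and 3-month males (diamonds). Dync2li1 (1242 in 3-week males), Ift20 and Pkd2 stand at the high end in every table and Kif17 (6.30) at the low end; each table was normalized on its own, so the vertical gap between the 3 symbols is not a difference between ages or sexes.

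At 3 weeks the ciliary genes differed little between knockout and control, with 1 large exception, Dcdc2a. In males 1 of 45 was called and none of them lower, where 17.3% of all 14657 tested genes were called (8.81% higher, 8.52% lower). In females 2 of 45 were called, 1 in each direction, against 18.7% of 14146 (8.29% higher, 10.4% lower). In each sex 44 of the 45 had a log2 fold change within ±0.5 (97.8%), as had 75.0% of all tested genes in males and 78.7% in females. In each sex the 95% interval of 44 of the 45 lay within a 2-fold change either way. The median log2 fold change of the 45 was −0.12 in males, with 35 negative values, and 0.00 in females, with 22; with equal summed counts the medians were 0.06 and 0.15. The medians of all tested genes were −0.01 and 0.01.

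Dcdc2a rose in both sexes at 3 weeks. It encodes a doublecortin-domain protein that binds microtubules and localizes to the cilium, and its human counterpart is a nephronophthisis gene. The gene spans chr13:25056004-25210706 on the plus strand. In males its mean was 3222 normalized counts and its log2 fold change 2.03 ± 0.18 (adjusted p = 2.44e-27), a level 4.10-fold that of controls (95% interval 3.21 to 5.22). In females the mean was 2125 and the log2 fold change 2.16 ± 0.24 (adjusted p = 1.46e-17), 4.45-fold that of controls. Only 80 tested genes in males (0.546%) and 43 in females (0.304%) had a higher log2 fold change. At 3 months the table gives 2.48 ± 0.45, at a mean of 789, with the status Outlier and no p-value, so it was not called, and 745 tested genes (5.81%) were higher. With equal summed counts the values at 3 weeks were 2.21 in males and 2.31 in females.

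Marker lists of kidney cells also held calls in these tables, and those of further cell types are given under Other observations. Of all tested genes 17.3% were called in 3-week males, 18.7% in 3-week females and 57.5% in 3-month males. Of the injured tubule markers all tested genes were called higher, 5 of 5, 6 of 6 and 6 of 6 in 3-week males, 3-week females and 3-month males, with median log2 fold changes of 1.53, 1.94 and 4.04. Spp1, which encodes the secreted phosphoprotein osteopontin, had 1.11 ± 0.16, 0.82 ± 0.12 and 2.66 ± 0.23, and the adhesion receptor gene Cd44 had 2.13 ± 0.26, 2.45 ± 0.25 and 4.02 ± 0.34. Of the tested proximal tubule markers, 5 of 7, 3 of 5 and 2 of 2 were called lower, and at 3 months 6 of the 8 had no p-value. Slc5a2, from which the direction of the ratio was read, is among those called in 3-week and 3-month males. Its direction was thus set beforehand. Of the 6 principal cell markers 5, 1 and 3 had a p-value, and 2, 0 and 2 of these were called higher. Of the tested ciliated epithelium markers 1 of 3, 1 of 2 and 0 of 1 were called, all higher. No marker of these 4 lists was called against these directions, which were the same with equal summed counts. None of these markers had a mean of 0. The part of any of these in the fold change of Dcdc2a was not tested. In whole kidney RNA, fewer cells of a type and less RNA per cell cannot be told apart.

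Nphp4, a transition zone protein gene, had −0.18 ± 0.25 in 3-week males and −0.14 ± 0.23 in females. Invs, the gene of inversin, had −0.37 ± 0.27 and 0.06 ± 0.16. Neither was called.

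None of the 3 polycystic genes was called at 3 weeks. Pkd1 had −0.04 ± 0.15 in males and −0.14 ± 0.10 in females (95% interval −0.34 to 0.06), so that a change beyond 1.5-fold lies outside both intervals. Pkd2 had −0.46 ± 0.20 (adjusted p = 0.105) and −0.25 ± 0.11 (adjusted p = 0.116), and Pkhd1 0.10 ± 0.16 and 0.29 ± 0.22. The IFT-B subunits ran from −0.43 (Ift172) to 0.10 (Ift74) in males and from −0.24 (Ift27) to 0.19 (Ift81) in females, with none of 10 called. The IFT-A subunits ran from −0.40 (Ift122) to 0.13 (Ift43) in males and from −0.19 (Ift122) to 0.15 (Ift140) in females, with none of 6 called. The motors ran from −0.21 (Dync2li1) to 0.17 (Kif17) and from −0.20 (Kif17) to 0.24 (Kif3b), the BBS genes from −0.43 (Bbs1) to 0.11 (Bbs12) and from −0.32 (Bbs4) to 0.29 (Bbs12), and no gene of either group was called. In the transition zone group the ends were −0.41 (Tctn3) and 0.19 (Arl13b) in males and −0.32 (Tctn3) and 0.44 (Arl13b) in females, again without a call. At an unadjusted p under 0.05 there were 6 of the 45 in males and 7 in females, Dcdc2a included in each.

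**Figure D2:**
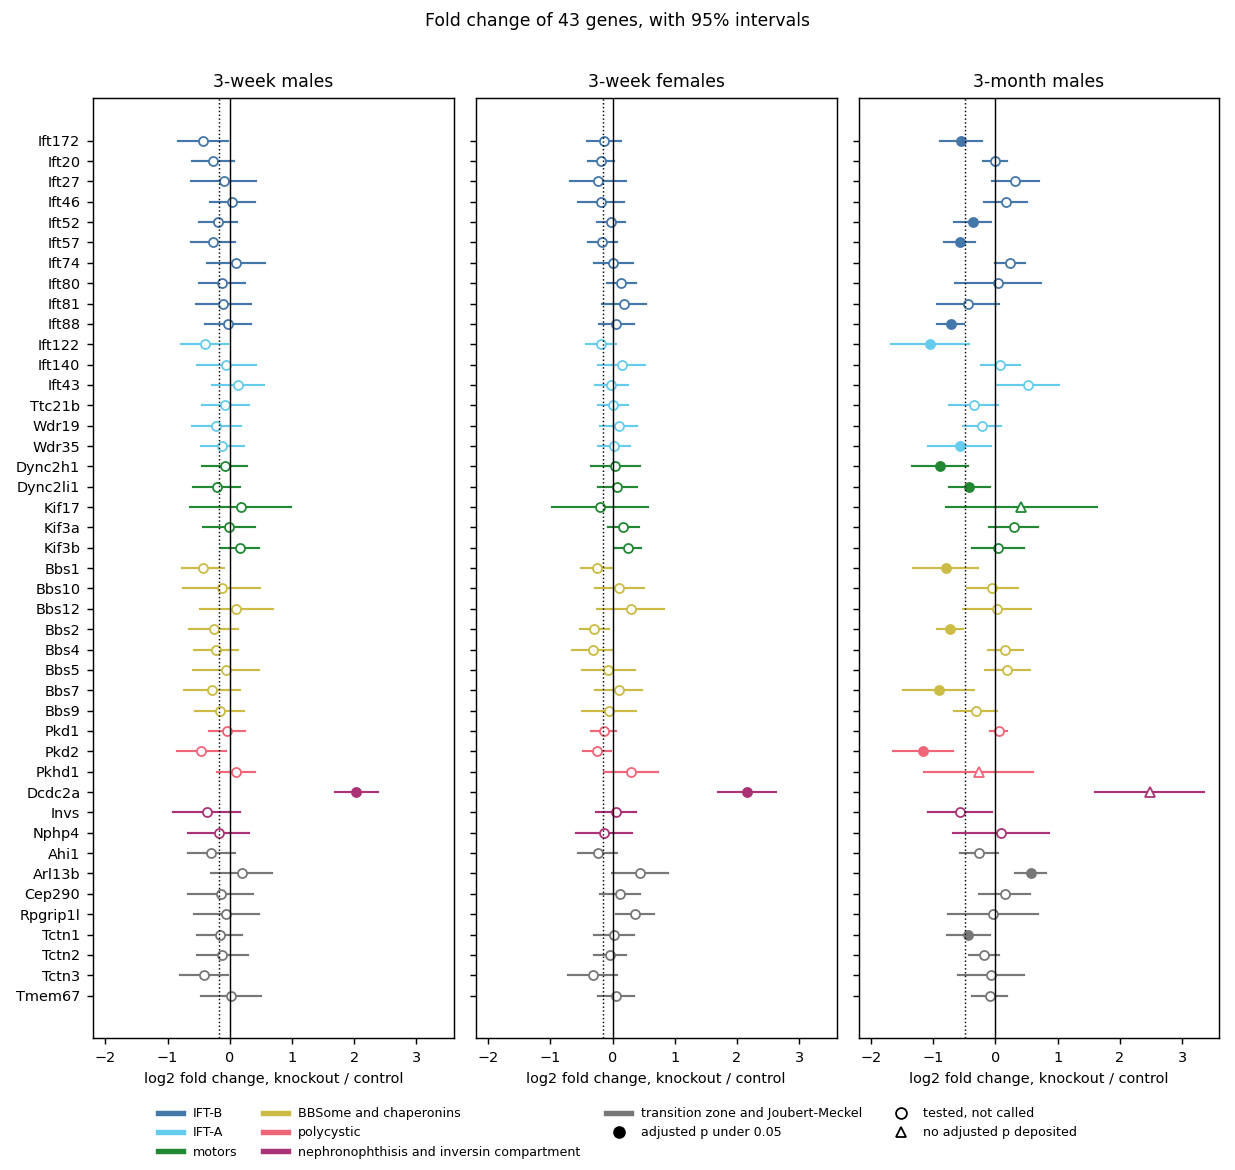
Log2 fold change of knockout over control (x axis) of 43 of the 45 genes (rows, coloured by role) in the authors' deposited tables of 3-week males, 3-week females and 3-month males (panels), with 95% intervals from the deposited standard errors; filled symbols are called, open circles tested and not called, triangles have no adjusted p, and the dotted line marks where 0 lies with equal summed counts. Dcdc2a stands apart at 2.03, 2.16 and 2.48; at 3 months the filled symbols lie to the left of 0 except Arl13b, and against the dotted line Ift52, Dync2li1 and Tctn1 change side.

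The genotype effect was not detectably different between the sexes at 3 weeks for any member. The difference of the log2 fold changes over its combined standard error, a 2-sided normal test adjusted by Benjamini-Hochberg over all 13737 genes tested in both tables, passed for 0 of 45 members and for 0% of all genes. None of the 45 had an unadjusted p under 0.05, and the smallest adjusted p of a member was 0.9995. For Dcdc2a the female minus male difference was 0.12 ± 0.30 (95% interval −0.46 to 0.70). As a description, the fold changes of the 45 in males and females had Pearson's r = 0.90 and Spearman's rho = 0.56, and without Dcdc2a r = 0.57 and rho = 0.52 (n = 44 genes), where all 13737 genes gave r = 0.86. The 2 tables share no library by the labels, but genes within a library are not independent.

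**Figure D3:**
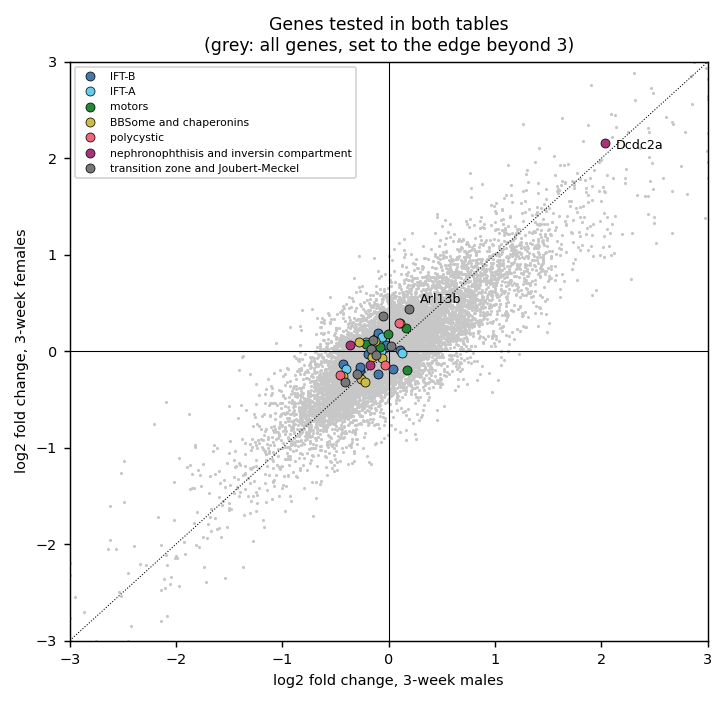
Log2 fold change in 3-week females (y axis) against 3-week males (x axis) for genes tested in both of the authors' deposited tables, with all genes in grey and 43 of the 45 coloured by role; the dotted line is equality. Dcdc2a (2.03 and 2.16) lies near that line at the upper right, and the other 42 gather within ±0.5 of 0.

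At 3 months 16 of the 42 members with an adjusted p were called, 15 lower and 1 higher (38.1%), in a table in which 57.5% of 12828 tested genes were called (29.8% higher, 27.8% lower); with equal summed counts 18 were called instead, 15 higher and 3 lower. Pkhd1 and Dcdc2a had the status Outlier and Kif17 the status Low (mean 8.70), and none of these 3 has an adjusted p. Of the 42, 27 had log2 fold changes within ±0.5 (64.3%, against 46.8% of all tested genes), and the 95% interval of 33 lay within a 2-fold change either way. Their median log2 fold change was −0.19, with 27 negative values, and 0.30 with equal summed counts, against 0.01 for all tested genes in the table as deposited. Pkd2 and Bbs2 were called lower and Arl13b higher under both scalings. For 12 of the 15 genes called lower the call depended on the scaling, and 3 of them changed sign.

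Invs had −0.57 ± 0.26 (adjusted p = 0.0512) at 3 months and Nphp4 0.09 ± 0.39, the latter at a mean of 39.7 normalized counts. Among the polycystic genes, Pkd2 fell by 1.17 (SE 0.25, adjusted p = 7.98e-06), to 44.5% of the control level (−0.67 with equal summed counts). Its partner Pkd1 stood at 0.05 ± 0.07 (adjusted p = 0.531, 95% interval −0.08 to 0.19), and at 0.55 and called higher with equal summed counts. Pkhd1 had −0.27 ± 0.45 and no p-value. Pkd1 overlaps Tsc2 on the opposite strand, which had −0.77 ± 0.18 in this table, and the sources used here do not give the strand setting of the counting.

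Among the IFT-B subunits 4 of 10 fell and none rose as deposited (40.0% called, against 57.5% of all tested genes). Equal summed counts gave 4 called higher and none lower, where 84.0% of the calls over all genes were higher. Ift88, the core subunit whose loss is a classic mouse model of cystic kidney, fell by 0.72 (SE 0.11, adjusted p = 4.16e-10). Ift57 fell by 0.57 (adjusted p = 3.11e-05), Ift172 by 0.55 (adjusted p = 0.00255) and Ift52 by 0.37 (adjusted p = 0.0259). Ift20 lay at 0.00 ± 0.10, and Ift27, the small GTPase of the complex, had the highest value, 0.32 ± 0.19 (adjusted p = 0.145). Among the IFT-A subunits Ift122 fell by 1.05 (SE 0.32, adjusted p = 0.00267) and Wdr35 by 0.57 (adjusted p = 0.0446), while Ift43 had 0.52 ± 0.26 (adjusted p = 0.0753). With equal summed counts neither fall was called, and Ift43 (1.01) and Ift140 (0.58) were called higher. The dynein-2 genes Dync2h1, its heavy chain, and Dync2li1 fell by 0.89 (SE 0.23, adjusted p = 0.00032) and 0.42 (adjusted p = 0.022), and with equal summed counts neither was called, the first at −0.39 (adjusted p = 0.121) and the second at 0.08. The kinesin-2 genes Kif3a and Kif3b had 0.29 ± 0.20 and 0.04 ± 0.21 and were not called, but with equal summed counts both were called higher (0.79 and 0.54).

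Of the 8 BBS genes 3 were called at 3 months (37.5%, against 57.5% of all tested genes). Bbs2, Bbs7 and Bbs1, all BBSome subunits, fell by 0.73 (SE 0.11, adjusted p = 5.49e-11), 0.91 (SE 0.29, adjusted p = 0.0041) and 0.80 (SE 0.27, adjusted p = 0.0062), and of these Bbs2 alone was still called lower with equal summed counts. The other 5 were not called: the subunits Bbs9 (−0.32), Bbs4 (0.16) and Bbs5 (0.19) and the chaperonin-like Bbs10 (−0.05) and Bbs12 (0.02). Of these 5, Bbs4 (0.66) and Bbs5 (0.69) were called higher with equal summed counts. In the transition zone group 2 of 8 were called (25.0%). Arl13b rose by 0.57 (SE 0.13, adjusted p = 3.59e-05), to 148% of the control level. It encodes a small GTPase of the ciliary membrane, mutated in Joubert syndrome. At 3 weeks its values were 0.19 ± 0.25 in males and 0.44 ± 0.23 in females. Tctn1, a transition zone protein gene, fell by 0.43 (adjusted p = 0.0249), and was at 0.06 with equal summed counts. Tctn1 shares its locus with Hvcn1 on the opposite strand, which had 1.58 ± 0.29. The other 6, Cep290, Tmem67, Ahi1, Rpgrip1l, Tctn2 and Tctn3, ranged from −0.26 to 0.15 and were not called. Of these 6, Cep290 (0.65), Tmem67 (0.40) and Tctn2 (0.32) were called higher with equal summed counts.

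On the deposited scale the genotype effect in males differed between the ages for 3 of the 42 members tested at both, all with a more negative value at 3 months. By the same kind of test over 12355 genes, 27.7% of all genes passed. Ift88 moved from −0.03 to −0.72 (difference −0.69 ± 0.22, adjusted p = 0.0099) and Dync2h1 from −0.08 to −0.89 (difference −0.80 ± 0.29, adjusted p = 0.0279). For Pkd2 the difference was −0.71 ± 0.32 (adjusted p = 0.0804) and for Bbs2 −0.48 ± 0.23 (adjusted p = 0.104). With equal summed counts neither Ift88 nor Dync2h1 passed, and no member passed when fold changes were divided by their spread in each table. The ages were compared across tables normalized separately, so age and table cannot be told apart. In all comparisons together, 14 members were negative in all, among them Pkd2, Bbs2 and Ift172, 5 were positive in all (Dcdc2a, Arl13b, Kif3b, Ift74 and Bbs12), and 26 had mixed signs, on the deposited scale.

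**Figure D4:**
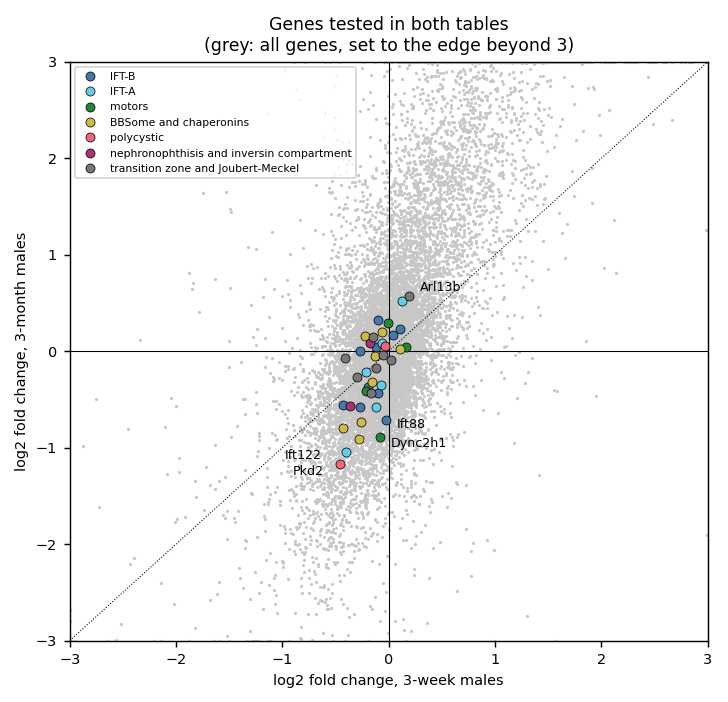
Log2 fold change in 3-month males (y axis) against 3-week males (x axis) for genes tested in both of the authors' deposited tables, with all genes in grey (values beyond 3 set to the edge) and 40 members with an adjusted p in both coloured by role; the dotted line is equality. Ift88 (−0.03 and −0.72) and Dync2h1 (−0.08 and −0.89) lie well under the line, as do Pkd2 and Ift122, and with equal summed counts the points would move up by 0.49 and right by 0.18.

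Over 7 lists of related genes 9 of 95 tested genes were called in 3-week males (9.47%, against 17.3% of all genes), 15 of 92 in 3-week females (16.3%, against 18.7%) and 44 of 84 in 3-month males (52.4%, against 57.5%). Of 13 further IFT, motor and trafficking genes none was called in 3-week males and 1 in 3-week females, the kinesin-2 adaptor gene Kifap3 (0.29 ± 0.11, adjusted p = 0.0418). At 3 months 1 of 12 rose (Kifap3, 0.37) and 2 fell, Tulp3 (−1.21 ± 0.23, adjusted p = 7.46e-07), which links IFT-A to membrane cargo, and Traf3ip1 (−0.67, adjusted p = 0.0291), but with equal summed counts 5 were higher and 1 lower. Of 7 further BBS genes Mkks, a chaperonin-like gene, was called lower in 3-week males (−0.57) and females (−0.35), neither of which was called with equal summed counts, and at 3 months 4 fell and 1 rose, against 1 higher and none lower with equal summed counts. Lztfl1 (−0.71) and Ttc8 (−0.75) fell and Bbip1 (0.44) rose. Of 27 further transition zone, basal body and nephronophthisis genes none was called in 3-week males. In 3-week females 1 rose and 3 fell, Glis2 (−0.41 ± 0.09, adjusted p = 4.39e-05), the nephronophthisis gene of a zinc finger factor, Inpp5e (−0.33), a ciliary phosphatase gene, and B9d2 (−0.42); with equal summed counts the split was 1 and 1. At 3 months 4 of 26 rose and 7 fell, with Xpnpep3 at −1.32, B9d1 at 0.72 and Inpp5e at −0.57, but with equal summed counts 14 were higher and 1 lower.

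Among 18 tested genes related to polycystic disease Pkdcc, which despite its symbol encodes a secreted kinase, rose in all 3 tables, by 0.61 ± 0.16, 0.38 ± 0.14 and 1.29 ± 0.11 in 3-week males, 3-week females and 3-month males. Bicc1, an RNA-binding protein gene whose loss gives cysts in mice, rose in 3-week females (0.49 ± 0.16, adjusted p = 0.015). At 3 months 3 of 15 rose and 6 fell, among them Tsc1 (−0.88 ± 0.13, adjusted p = 5.49e-10) and the translocon gene Sec61a1 (0.49 ± 0.08, adjusted p = 9.47e-09); with equal summed counts 7 were higher and 2 lower. The RFX factor genes listed had no call among 5 tested at 3 weeks in either sex. At 3 months Rfx2 rose (0.85 ± 0.21, adjusted p = 0.0002) while Rfx3 (−0.96 ± 0.33, adjusted p = 0.00729) and Rfx7 (−0.57, adjusted p = 0.00177) fell, and with equal summed counts 2 of the 5 were higher and none lower.

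Hedgehog signalling, which in vertebrates runs through the primary cilium, held the highest fold change of the 7 lists of related genes in each table. In 3-week males 5 of 14 tested genes were called and in 3-week females 5 of 15, all higher, with medians of 0.27 and 0.34, and no gene was lower with equal summed counts. Of all tested genes 8.81% and 8.29% were called higher in these 2 tables. At 3 months 8 of 14 rose and 3 fell, with a median of 1.40 (11 and 2 with equal summed counts), where 29.8% of all tested genes were called higher and 27.8% lower as deposited. Gli1, the transcription factor gene that is itself a standard readout of the pathway, had 1.82 ± 0.23 (adjusted p = 1.55e-13) in 3-week males, 1.11 ± 0.28 in 3-week females and 2.98 ± 0.51 in 3-month males. Hhip, which encodes a decoy receptor induced by the pathway, had 1.11 ± 0.28, 1.62 ± 0.31 and 3.59 ± 0.42. The ligand gene Ihh rose in 3-week males (1.06 ± 0.27) and females (1.05 ± 0.13). The coreceptor gene Cdon rose at 3 months (1.59 ± 0.14). Ptch1, the main receptor gene and another usual target, had −0.07, −0.06 and −0.94 ± 0.18, and it, Smo (−0.47) and Sufu (−1.25) were the 3 that fell at 3 months (these 3 are named after their values were seen). Of the tested fibroblast and mural markers 1 of 1 was called higher in 3-week males, 2 of 4 were higher and 1 lower in 3-week females, and 1 of 1 was higher in 3-month males. Their part in the values of this list was not tested.

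Genes of motile cilia, which healthy tubule cells do not build, had low means, with a median of 16.9, 9.19 and 16.8 normalized counts in the 3 tables. Foxj1, the master regulator of motile ciliation, rose in 3-week males (0.95 ± 0.35, adjusted p = 0.0388) and females (1.16 ± 0.34, adjusted p = 0.00576), at means of 54.3 and 38 normalized counts. At 3 months Foxj1 had 3.44 ± 0.67 and the status Outlier, with no p-value. Rsph9, a radial spoke gene, was the best counted of them in 3-week males (mean 960) and fell in both sexes (−0.62 and −0.79), but in males not with equal summed counts. At 3 months Tekt2 (1.27) and Spag1 (0.68) were called higher (4 genes with equal summed counts), and 5 of the 15 genes in the table had an adjusted p.

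**Figure D5:**
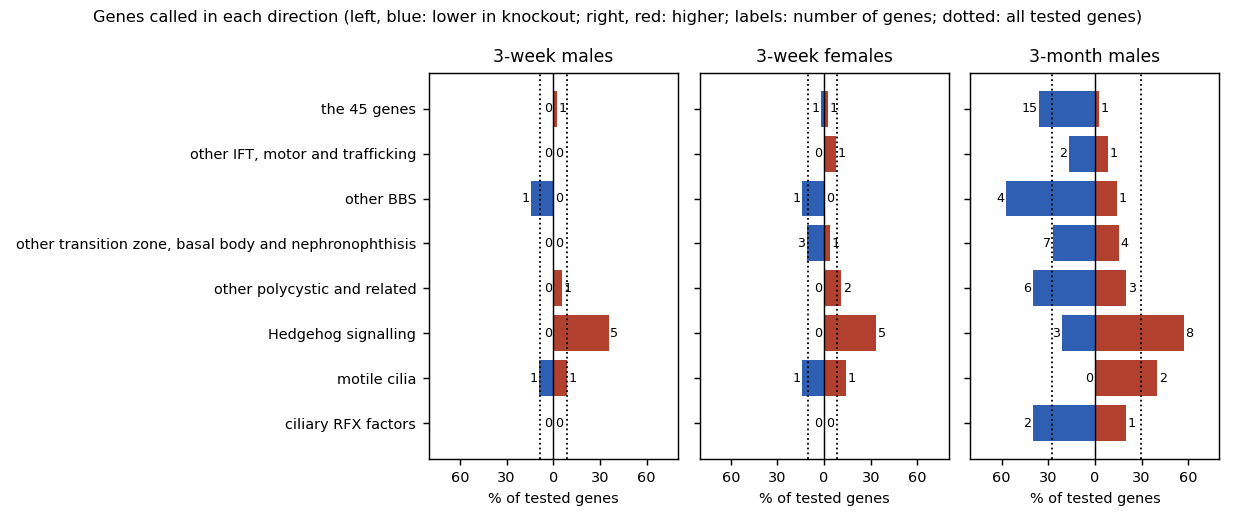
Share of tested genes called lower (left, blue) or higher (right, red) in knockout (x axis, %) for the 45 genes and for 7 lists of related genes (rows) in the authors' deposited tables of 3-week males, 3-week females and 3-month males; numbers are genes, and dotted lines give the share of all tested genes in each direction. The 45 lie inside the dotted lines at 3 weeks and reach 15 lower and 1 higher at 3 months (3 lower and 15 higher with equal summed counts), and Hedgehog signalling extends to the right in all 3 panels under both scalings.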

How the data were processed

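Kidney RNA of 15 mice in 6 groups was sequenced as polyadenylated RNA with a stranded kit, per the labels' protocols. The submitters' processing notes name STAR, HOMER, DESeq2 and the build mm10, and the sources used here do not give their versions, the strand setting or any moderation of fold changes. The authors deposited 3 tables of comparisons. Per the file headers each gene has its mean normalized count (a signal), the log2 fold change and its error, raw and adjusted p-values, and a status word. All deposited p-values equalled the normal p of fold change over standard error within 1%, and adjusted values differed from Benjamini-Hochberg over genes with status OK by at most 8.65e-07. Largest standard errors were 0.44, 0.42 and 1.10 in 3-week males, 3-week females and 3-month males, so fold changes may be moderated towards 0 to differing degrees. Genes with the status Low had means no higher than 9.995, 9.997 and 9.968.

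Left out were 27 symbols that a spreadsheet had turned into dates. Calls are deposited adjusted p under 0.05, as designed for tables of comparisons. Differences between tables were tested as the difference over its combined standard error, adjusted over all genes, with scripts tested on simulated data (Python 3.11.15, numpy 2.4.6, pandas 2.3.3, scipy 1.17.1). Intervals are 95%. Lengths and places are from GENCODE M21 on GRCm38, the build of mm10. Steps in means under 2 shared by at least 20 genes (tolerance 2.5e-06) gave the number of libraries. Named genes were members called in any table, the Pkd, Nphp, Invs, Dcdc2a and Pkhd1 genes, the lowest and highest of each role, members past a difference test, those with the highest level per kb, and up to 3 called genes with the smallest adjusted p per list and table; others are named as such. Results of some genes that this rule takes are not reported here. The members and lists were chosen with earlier results of these data known. Alternatives were all genes with a p-value, a mean of at least 50, equal summed counts, centring on the median, an adjusted p under 0.01, scaling by spread for differences and, added after seeing the data, keeping Outlier genes.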

Additional observations from a re-analysis of the deposited data

Results flagged for a closer look

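The genotype effect of 2 genes described here differed between 3-month and 3-week males by the test of the difference itself (values are the 3-month minus the 3-week log2 fold change). Dync2h1, the heavy chain gene of dynein-2, differed by −0.802 and Ift88, the IFT-B core gene, by −0.69. By the same test 27.7% of all 12355 genes passed. With equal summed counts neither Dync2h1 nor Ift88 passed the threshold. With fold changes divided by their spread in each table they did not pass either (adjusted p of the difference 0.554 and 0.550).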

How the results depend on the processing

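No paired analysis was possible because the library numbers do not repeat across groups and the tables hold no value per library; for the same reason leaving out each library was not run, and what 1 library contributes is not known. In 3-week males 1 of the 45 was called under all 6 alternatives. In 3-week females 5 were called with equal summed counts, all higher (Dcdc2a, Kif3a, Kif3b, Arl13b and Rpgrip1l), and 1 at an adjusted p under 0.01. At 3 months the count ran from 12 to 18, but with equal summed counts 4 of the 16 calls remained and 14 were gained, all higher, among them Pkd1, Ift20 and Kif3a. That scaling reversed Ift52 (0.13), Dync2li1 (0.0772) and Tctn1 (0.0612) and moved the median of the members from −0.19 to 0.30. It moved the share of calls that were higher, over all genes, from 50.8% to 75.2% in 3-week males, from 44.2% to 74.0% in 3-week females and from 51.7% to 84.0% in 3-month males. The age difference passed for 5 members with equal summed counts, 4 of them with a higher value at 3 months (Ift20, Bbs4, Pkd1 and Arl13b), and for 0 when fold changes were divided by their spread in each table. The sex difference passed for 0 members under every alternative; over all genes 2 of 14952 passed with Outlier genes kept. With those kept, Dcdc2a was called at 3 months (adjusted p = 1.54e-07) and Pkhd1 was not (0.624). Wdr35 missed the threshold (0.054) when p-values were adjusted over every gene, and Invs passed it (0.0464) on centring. Depth limits Kif17 and Nphp4 most, and which scaling is nearer to RNA per cell was not tested.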

Other observations

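Calls among markers of other kidney cells were as follows. Of all tested genes 17.3% were called in 3-week males, 18.7% in 3-week females and 57.5% in 3-month males. Some markers had the status Outlier and no p-value. At 3 months these included 3 of 4 thick ascending limb markers and 5 of 6 intercalated cell markers. In the authors' deposited tables of 3-week males, 3-week females and 3-month males, thick ascending limb markers were called lower in 3 of 4, 2 of 3 and 1 of 1 tested genes, and distal convoluted tubule markers in 3 of 3, 2 of 2 and 2 of 2. Intercalated cell markers were called lower in 3 of 4, 2 of 3 and 0 of 1, and podocyte markers in 3 of 4, 1 of 4 and 3 of 4, with 1 more higher at 3 months. Endothelium markers were called lower in 2 of 4, 4 of 4 and 1 of 2, with 1 higher at 3 months. Macrophage markers were called higher in 4 of 5, 4 of 5 and 5 of 5, and dividing cell markers in 3 of 5, 2 of 2 and 2 of 3. Of the urothelium markers Krt5 alone had a p-value, at 3 months, and was called higher (10.02). With equal summed counts the podocyte calls became 0 in 3-week males and 1 in each direction at 3 months. No endothelium marker was then lower and 1 intercalated cell marker was higher at 3 months. In 3-week females 1 thick ascending limb marker in place of 2 was lower. Calls of higher became 5 of 5 macrophage and 5 of 5 dividing cell markers in 3-week males, and 3 of 3 dividing cell markers at 3 months.

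Rabl5, an older name of the IFT-B gene Ift22 that the rule does not take, had −0.50 ± 0.20 (adjusted p = 0.0638), −0.19 and 0.13 in the authors' deposited tables, and was looked up after the other values were seen.

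Several genes sharing a locus with a member on the opposite strand had log2 fold changes beyond 1 either way at 3 months in the authors' deposited table, besides Hvcn1. They were Tex10, opposite Invs, with 1.04 (adjusted p = 9.28e-06), Cetn4, opposite Bbs12, with −1.02 (adjusted p = 0.000137), Lrrc19, opposite Ift74, with −2.58 and the status Outlier, and Stx19, opposite Arl13b, with 3.04 and the status Low. The last 2 have no adjusted p. Of the 45, 13 overlap another gene of the tables.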
